A study of Mus musculus with 4 samples.

Results

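The unfolded protein response and the integrated stress response were described through 37 genes in 4 RNA sequencing libraries of mouse microglia. The genes were listed by symbol for their known function, by a rule that uses no measured value, and all 37 were found among the 56832 genes in each file. They fall into 4 arms. The PERK arm holds 12 genes, of eIF2α kinases and of the factors, targets and phosphatase subunits downstream of them. Another 11 belong to IRE1, XBP1 and ER-associated degradation, 9 to ATF6 and protein folding in the ER, and 5 to amino acid and one-carbon synthesis. Microglia, the resident macrophages of the brain, came from primary glial culture of C57BL/6 mice, labelled female; they were detached with trypsin and sorted by flow cytometry, with gates that the labels leave out. The study was designed to set them beside cultured blood progenitors, grown alone or with microglia-depleted glia; libraries of such cells are not used, and the values below describe 1 group. The labels do not tell whether the 4 libraries stem from different cultures or mice; SDs and p-values cover the spread among libraries alone, and that spread may be technical.

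The libraries held between 23212183 and 28469813 gene counts. All 8 microglial and macrophage markers checked were at 100 TPM or more, with a median of 1846 TPM ± 63.4 (SD, n = 4 here and for every ± below) and with C1qa and Fcrls highest; TPM divides counts by gene length and scales them to a common library total, and is used here wherever different genes are compared. Of 8 astrocyte markers 7 were at 1 CPM (counts relative to the library total, without gene length) or more in all libraries, and the summed level of the 8, led by Clu and Gfap, was 277, 434, 471 and 380 CPM in replicates 1 to 4. Of the other markers checked, Mog of oligodendrocytes, Snap25 of neurons and Igkc of plasma cells were at 0 counts throughout; 0 counts is compatible with a level of at most 0.129 CPM in a library, a limit for counting error only. The highest of the other lists were Cnp (99.3 TPM ± 3.08) and Mbp for oligodendrocytes, Acta2 (84.5 TPM ± 21.2) and Tagln for mural cells, Kdr (6.28 TPM ± 1.55) and Cdh5 for endothelium, Tubb3 (1.06 TPM ± 1.62) and Syt1 for neurons, and Sdc1 (1.25 TPM ± 0.199) and Jchain for plasma cells.

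The endoplasmic reticulum folds secreted and membrane proteins. When unfolded proteins build up, the membrane sensors PERK, IRE1 and ATF6 slow translation, cut an intron from Xbp1 mRNA and release a transcription factor, and so raise the capacity to fold proteins or to export them for degradation. PERK shares its substrate, the translation factor eIF2α, with kinases that sense lack of amino acids, lack of heme or viral RNA; phosphorylated eIF2α lowers general translation and favours translation of ATF4, which induces genes of amino acid supply and, with CHOP, of cell death. Gene counts report mRNA amount: they do not separate spliced from unspliced Xbp1 mRNA and carry no measure of eIF2α phosphorylation or ATF6 cleavage.

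The whole set was well expressed. At 1 CPM or more in all libraries were 36 of the 37 genes, beside 51.8% of protein-coding genes, and the exception was Derl3. The median member stood at 59.7 TPM ± 2.41, and the median of all protein-coding genes at 1 CPM or more was 22.4 TPM ± 0.316. Of the 37 members 31 lay above that level, and 11 had a mean of 100 TPM or more, beside 14.4% of detected protein-coding genes. The arms were uneven, with medians of 155 TPM ± 13.3 for ATF6 and ER folding and 94.0 TPM ± 2.06 for IRE1, XBP1 and ER-associated degradation. Medians were 36.5 TPM ± 0.240 for the PERK arm, kinases and downstream genes together, and 33.9 TPM ± 3.01 for amino acid and one-carbon genes. With the length of the longest transcript in place of all merged exons, the ATF6 arm was at 127.9 TPM and the amino acid arm at 41.9 TPM. Together the members took 0.436% ± 0.00609 of all counts. In bulk RNA, fewer cells that carry a transcript and less of it per cell cannot be told apart.

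**Figure D1:**
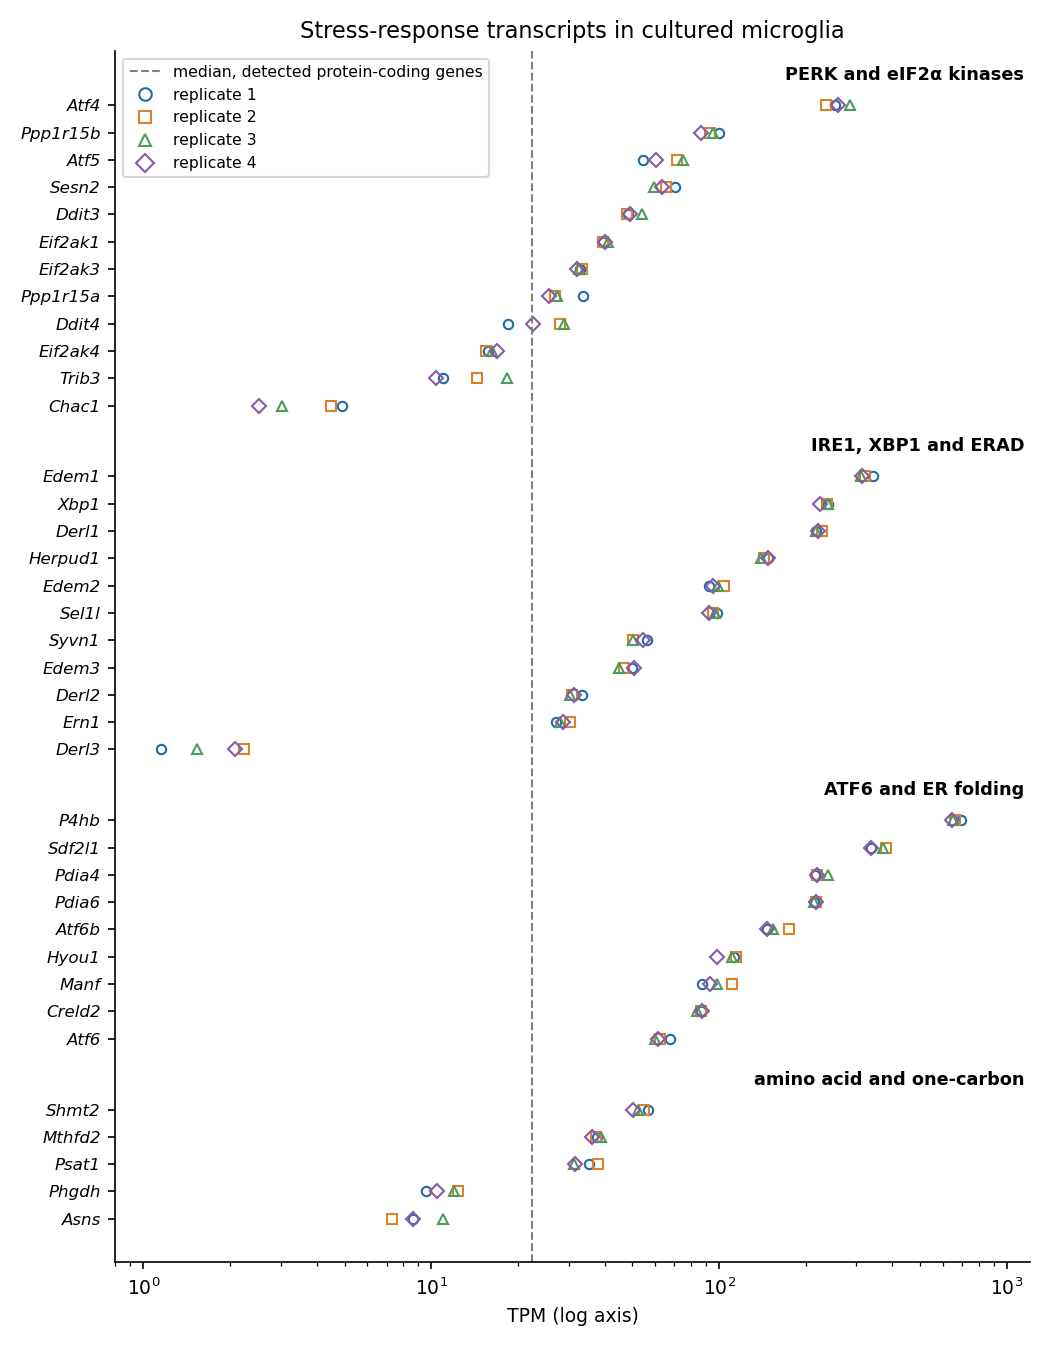
TPM (log axis) of the 37 genes, ordered by mean within each arm, with 1 symbol per replicate library; the dashed line is the median of detected protein-coding genes, 22.4 TPM. All 9 genes of the ATF6 arm lie right of the line, while Derl3, Chac1, Asns, Phgdh, Trib3 and Eif2ak4 lie left of it.

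The sensors themselves were moderate in level. Atf6b, which encodes the weaker activator of the ER-tethered ATF6 pair, was at 146, 174, 154.5 and 146 TPM in replicates 1 to 4. Atf6 itself was lower in every library, at 67.5, 62.3, 59.7 and 61.4 TPM. IRE1α, encoded by Ern1, was at 27.2, 30.4, 28.1 and 28.6 TPM, and PERK, encoded by Eif2ak3, at 32.97, 33.4, 32.5 and 32.2 TPM. Atf6 and Atf6b were thus above the other sensors in all libraries, with no overlap. On the log2(TPM + 1) scale Atf6b exceeded Atf6 by 1.29 ± 0.157 in 4 of 4 libraries, and Atf6 exceeded PERK by 0.91 ± 0.0683. Ern1 lay slightly under PERK, by a difference of -0.19 ± 0.0586. These values come from exact two-sided sign-flip permutation tests over libraries in 16 gene pairs, each with p = 0.125 before and after Benjamini-Hochberg adjustment over the pairs. That is the smallest p that 4 libraries allow, so no pair can pass 0.05 in this design. Counted without length, Atf6b lay below Atf6, by a difference of -0.43 on the log2(CPM + 1) scale; the merged exons measure 2757 bases in Atf6b and 9231 in Atf6. On that scale Ern1 lay above PERK, by 0.24.

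Among the kinases that share eIF2α, the heme-regulated kinase HRI, encoded by Eif2ak1, was at 39.7, 39.4, 41.0 and 40.3 TPM, close above PERK in each library (0.28 ± 0.0454 on the log2 scale, exact permutation p = 0.125). GCN2, encoded by Eif2ak4 and activated by uncharged tRNA, was lower, at 15.8, 15.4, 16.3 and 16.9 TPM, a difference from PERK of -0.98 ± 0.0751 (exact permutation p = 0.125). The 3 kinases varied little, with a highest library 1.03 to 1.10 times the lowest in CPM.

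Downstream of eIF2α, the mRNA of the transcription factor ATF4 was abundant, and the genes under it differed widely in level. Its targets Trib3 and Chac1 were low, while Sesn2 and Ddit3 of the same arm were higher. The other ATF4 and CHOP targets listed had a median of 14.4 TPM ± 2.21, from Fgf21 at 0 counts to Slc3a2 at 331 TPM ± 13.2. Atf4 stood at 252, 235, 284 and 259 TPM, rank 4 of the 37 genes by mean level. Its libraries ran from 164 CPM in replicate 2 to 198 CPM in replicate 3. Atf5, a related factor whose translation is also held back by upstream reading frames, was at 54.6, 71.5, 74.8 and 60.4 TPM. Ddit3, which encodes the pro-apoptotic factor CHOP, was at 48.4, 48.1, 54.0 and 49.0 TPM. Ddit3 kept an even ratio to Atf4 between libraries, at 0.194 ± 0.00727 of its TPM, whereas the ratio of Atf5 to Atf4 ranged from 0.216 to 0.305.

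Trib3, which encodes a pseudokinase induced by ATF4 and CHOP, was at 11.0, 14.4, 18.3 and 10.4 TPM. Chac1, an enzyme gene for glutathione breakdown and a sensitive target of ATF4, had 63, 51, 34 and 35 counts, or 4.90, 4.49, 3.02 and 2.53 TPM. It was the lowest gene of its arm in every library, above only Derl3 in the whole set. Sesn2 and Ddit4 both encode restrainers of the growth kinase complex mTORC1. Sesn2 was at 70.2, 65.6, 59.6 and 63.2 TPM and Ddit4 at 18.4, 28.0, 28.9 and 22.5 TPM, with replicate 1 the highest library for Sesn2 and the lowest for Ddit4.

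The phosphatase that reverses the signal has an inducible and a constitutive subunit. Ppp1r15b, the constitutive CReP, was at 99.6, 93.2, 95.2 and 86.6 TPM, and Ppp1r15a, the inducible GADD34, at 33.6, 26.9, 27.4 and 25.7 TPM. The constitutive subunit was the higher in 4 of 4 libraries, by 3.31 ± 0.238 times in TPM (1.69 ± 0.103 on the log2 scale, exact permutation p = 0.125). Both were highest in replicate 1.

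In the IRE1 arm, Xbp1 and the degradation machinery were higher than the sensor, with the exception of Derl3. Xbp1, whose mRNA IRE1 splices, was at 239, 238, 239 and 225 TPM, rank 5 of the 37 genes. The EDEM proteins trim mannose from misfolded glycoproteins and so mark them for disposal. Edem1 was at 342, 320.3, 312 and 314 TPM and had between 13846 and 17320 counts, the largest count of all members in every library. Edem3 was at 49.8, 46.6, 44.8 and 50.6 TPM, and Edem2 at 92.3, 104, 98.9 and 95.3 TPM. Edem1 exceeded Edem2 by 1.71 ± 0.117 on the log2 scale, and the difference of Edem3 from Edem2 was -1.01 ± 0.142, both in 4 of 4 libraries (exact permutation p = 0.125 each). The order Edem1, Edem2, Edem3 held in each library.

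Misfolded proteins leave the ER through the ubiquitin ligase HRD1, encoded by Syvn1, with its partner SEL1L and the derlins. Sel1l was at 98.4, 95.1, 96.4 and 92.3 TPM and Syvn1 at 56.2, 50.3, 50.2 and 54.3 TPM. Derl1 was at 217, 228, 217 and 221 TPM. Derl2 was at 33.4, 30.8, 30.5 and 31.4 TPM, lower than Derl1 by 7.01 ± 0.378 times (log2 difference of Derl1 from Derl2 2.77 ± 0.0770, exact permutation p = 0.125). With the longest transcript that log2 difference was 1.97. Derl3, the derlin known for high levels in secretory cells, had only 18, 31, 21 and 35 counts, or 0.666, 1.32, 0.905 and 1.23 CPM, and was the lowest of all members in every library, with a log2 difference from Derl2 of -3.58 ± 0.313 (exact permutation p = 0.125). Herpud1, an ER membrane scaffold of the same machinery and a target of several arms, was at 148, 143, 140.1 and 148 TPM.

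The ATF6 arm held the highest genes. P4hb, which encodes protein disulfide isomerase, was at 694, 657, 648 and 644 TPM and ranked first in every library. Sdf2l1, which encodes a partner of ER chaperones, was at 338, 379, 371 and 337 TPM. Sdf2l1 and Edem1 came next with merged exon lengths, and their order changed between libraries. With the longest transcript, P4hb stayed first, and Pdia6, Xbp1, Sdf2l1, Edem1 and Atf4 took ranks 2, 3, 4, 5 and 6. The disulfide isomerase genes Pdia4 and Pdia6 were alike in level, at 215, 220, 239 and 219 TPM for Pdia4 and at 214, 217, 213 and 216.5 TPM for Pdia6. The mean difference of Pdia4 from Pdia6 was 0.05 ± 0.0752 on the log2 scale, above 0 in 4 of 4 libraries (exact permutation p = 0.125) and smaller than its SD. It turned to -0.73 with the longest transcript and to -0.59 on CPM without length. P4hb exceeded Pdia6 by 1.61 ± 0.0541 (exact permutation p = 0.125), and by 0.83 with the longest transcript.

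Hyou1, which encodes a large chaperone that exchanges nucleotide on BiP, was at 112, 114, 111 and 98.1 TPM. Manf, a stress-induced ER protein that can be secreted, was at 87.3, 111, 98.2 and 93.0 TPM. Creld2, another stress-induced ER protein, was at 86.5, 86.2, 83.6 and 87.0 TPM and was among the steadiest members, with a coefficient of variation of 1.85% in CPM.

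**Figure D2:**
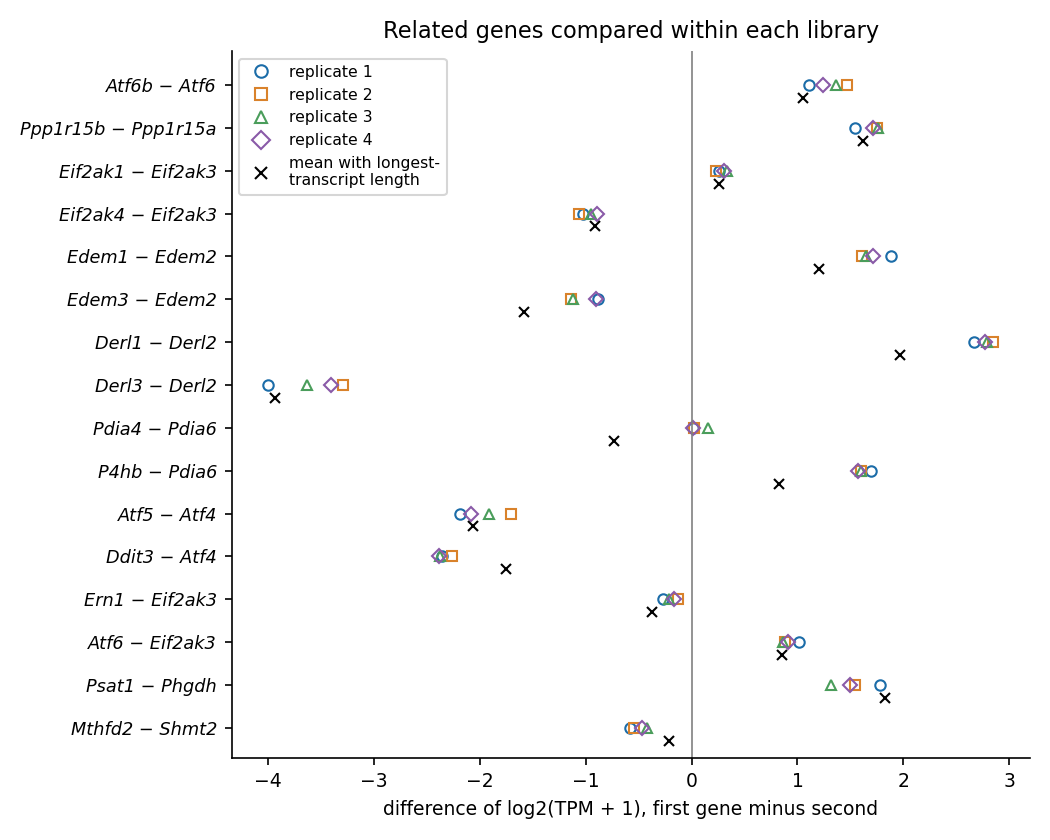
Difference of log2(TPM + 1) between 16 pairs of related genes, first gene minus second, with 1 symbol per replicate library and a cross for the mean when TPM uses the longest transcript. Every pair lies on 1 side of 0 in all libraries; the cross lies on the other side for Pdia4 and Pdia6 only, at -0.73.

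In the amino acid arm, the mitochondrial one-carbon genes were above Phgdh and Asns. Mthfd2, an enzyme gene of mitochondrial folate metabolism, was at 37.6, 37.5, 39.02 and 36.1 TPM. Shmt2, which encodes the step before it, the transfer of a one-carbon unit from serine to folate, was at 56.5, 55.0, 52.4 and 50.4 TPM. The difference of Mthfd2 from Shmt2 was -0.50 ± 0.0711 on the log2 scale (exact permutation p = 0.125). Psat1, the second enzyme of serine synthesis, was at 35.3, 37.95, 31.4 and 31.5 TPM. Phgdh, the first enzyme of that route and in brain a gene typical of astrocytes, was at 9.58, 12.4, 11.999 and 10.5 TPM. Psat1 exceeded Phgdh by 1.53 ± 0.190 on the log2 scale in 4 of 4 libraries (exact permutation p = 0.125). Asns, asparagine synthetase and a classical ATF4 target, was at 8.66, 7.33, 11.0 and 8.65 TPM, the lowest gene of the arm in every library.

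In the order of the 37 genes by mean TPM, neighbours often could not be ranked. Of 36 neighbouring pairs, 13 had ranges over the 4 libraries that did not overlap, and 15 kept their order in every library. Gaps stood between P4hb and Sdf2l1, between Edem1 and Atf4, between Creld2 and Atf5 and between Asns and Chac1, while Atf4, Xbp1, Pdia4 and Derl1, which follow each other, overlapped from each to the next.

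Promoter windows from RefSeq (build GRCm38.p6, which is not the build of the counts) were found for 32 of the 37 genes, all but Ppp1r15b, Derl1, Atf6, Manf and Hyou1. Each covers 250 bases before and 50 after an annotated start. They were searched on both strands for the ER stress element ERSE (CCAAT and CCACG with any 9 bases between them), for ERSE-II (ATTGG and CCACG with any 1 base between them), a core of the XBP1 element UPRE (TGACGTGG) and a core of the ATF4 element CARE (TGATGNAA). The last 5 bases of ERSE and ERSE-II, on the other strand, are also the last 5 of the UPRE core. ERSE was found in 4 of the 32 genes, Syvn1, Derl3, Creld2 and Pdia6, and in 0.137% of all genes with a window. ERSE-II was found in Herpud1 and in 0.0444% of all genes, the UPRE core in 0 of the 32 and in 0.714% of all genes, and the CARE core in Trib3, Chac1, Herpud1 and Asns and in 4.51% of all genes. A match to these letters is a description of the window and does not show binding.

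The stretches around the matches before the start are given here because they show the same element in genes of very different level, from Pdia6 at 215 TPM, rank 8 of the 37 with merged exon lengths and 2 with the longest transcript, to Derl3, the last. Capitals mark the matched element, each sequence runs 5′ to 3′ on the strand of the gene, and coordinates are of GRCm38.p6. The first 4 hold ERSE, Herpud1 holds the CARE core and then ERSE-II, and Chac1 and Asns hold the CARE core.
Syvn1, chr19:6046492-6046575, + strand: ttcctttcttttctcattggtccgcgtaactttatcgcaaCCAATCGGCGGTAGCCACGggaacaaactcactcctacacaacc
Derl3, chr10:75893202-75893300, + strand: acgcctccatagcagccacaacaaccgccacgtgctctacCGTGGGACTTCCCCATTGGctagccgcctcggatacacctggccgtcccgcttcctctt
Creld2, chr15:88819480-88819578, + strand: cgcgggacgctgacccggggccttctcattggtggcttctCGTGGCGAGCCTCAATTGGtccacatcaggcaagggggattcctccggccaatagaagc
Pdia6, chr12:17266451-17266549, + strand: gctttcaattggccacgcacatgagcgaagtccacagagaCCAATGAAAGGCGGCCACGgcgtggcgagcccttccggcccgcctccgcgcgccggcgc
Herpud1, chr8:94386277-94386427, + strand: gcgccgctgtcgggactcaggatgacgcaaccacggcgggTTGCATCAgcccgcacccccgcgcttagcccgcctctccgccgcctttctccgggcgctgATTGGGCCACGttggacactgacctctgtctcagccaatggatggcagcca
Chac1, chr2:119351009-119351096, + strand: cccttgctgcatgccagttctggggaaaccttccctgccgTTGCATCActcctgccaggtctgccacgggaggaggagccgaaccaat
Asns, chr6:7693210-7693272, - strand: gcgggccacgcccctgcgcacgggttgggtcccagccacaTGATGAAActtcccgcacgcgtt

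In Derl3 and Creld2 the ERSE runs on the other strand, as does the CARE core in Herpud1 and Chac1. The elements began 44 bases before the annotated start in Syvn1, 98 in Pdia6, 126 in Creld2 and 156 in Derl3. The ERSE-II of Herpud1 began 52 bases before the start and its CARE core 112. The CARE core began 193 bases before the start in Chac1 and 23 in Asns. That of Trib3 lay 15 bases into the transcript. Genes with the ERSE stood at 52.7 TPM ± 3.0002 (Syvn1), 85.8 TPM ± 1.52 (Creld2), 215 TPM ± 1.74 (Pdia6) and 1.75 TPM ± 0.502 (Derl3). Trib3, Chac1 and Asns, the other members with the CARE core beside Herpud1, were under 20 TPM in every library, which does not hold for all of the further pathway genes with the core.

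Other genes of the pathways, listed by function, were measured in the same libraries. Of 18 further ER chaperone and folding genes all were at 1 CPM or more, with a median of 112 TPM ± 1.92 for the 16 with a length. The lectin chaperone Calr (1448 TPM ± 51.4), the disulfide isomerase Pdia3 (709 ± 39.01) and Hspa5 (672 ± 36.9), which encodes the master ER chaperone BiP, were highest, and Hspa13 (23.3 ± 1.67) and Pdia5 (2.26 ± 0.355) lowest. Of the 16 with a promoter window, 6 held the ERSE, namely Hspa5, Hsp90b1, Calr, Canx, Dnajc3 and Ero1b. Of 17 further genes of ER-associated degradation and the ER membrane, the 16 with a length had a median of 122 TPM ± 9.25, from Tmbim6 (832 ± 31.0), Os9 (375 ± 21.7) and the extraction ATPase Vcp (372 ± 14.1) to Erlec1 (30.0 ± 2.49) and Wfs1 (8.38 ± 0.228).

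Genes that process the sensors or form eIF2 and its exchange factor had a median of 32.7 TPM ± 2.01. Rtcb, the ligase that joins spliced Xbp1 mRNA, stood far above the rest at 568 TPM ± 8.71, followed by the eIF2 subunit gene Eif2s3x (75.0 ± 7.31) and Eif2b5 (73.7 ± 5.83), with Mbtps2 (12.6 ± 0.568) and Eif2b3 (5.37 ± 0.651) lowest. The other targets of ATF4 and CHOP were split, with a median of 14.4 TPM ± 2.21. The amino acid transporter subunit Slc3a2 (331 TPM ± 13.2), the antioxidant factor Nfe2l2 (226 ± 11.1) and Cebpb (222 ± 15.1) were highest; Stc2 (0.108 ± 0.128) was next to lowest, and Fgf21, a hormone gene induced by ATF4 in liver, had 0 counts in every library. The CARE core was found in 6 of 17 windows of these other targets, that of Atf3 (127 TPM ± 4.94) included. Of 12 aminoacyl-tRNA synthetase genes, the 11 with a length had a median of 66.3 TPM ± 2.96, with Nars (200.02 ± 4.22), Sars (96.1 ± 7.13) and Gars (76.4 ± 3.68) highest and Cars (23.0 ± 1.48) and Eprs (17.7 ± 1.05) lowest. The core was found in 5 of 8 of their windows, that of Gars included. Further serine, proline and one-carbon genes had a median of 8.51 TPM ± 0.761; Gcsh (47.2 ± 1.20) and Mthfd1 (24.9 ± 2.16) were among the highest, and Aldh1l2 (0.718 ± 0.145) and Pycr1 (0.658 ± 0.159) were lowest.

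**Figure D3:**
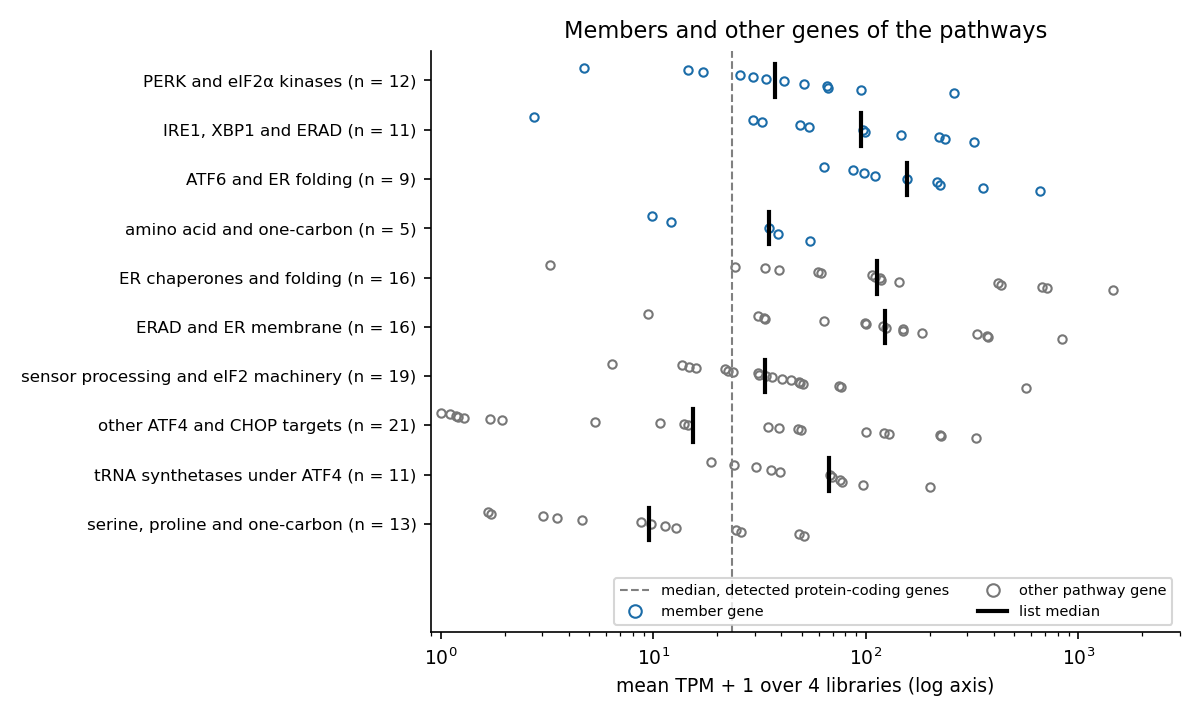
Mean TPM + 1 over 4 libraries (log axis) of each member, by arm, and of each other pathway gene with a length, by list; points are spread vertically only to separate them, black bars are list medians and the dashed line is the median of detected protein-coding genes. The medians of the ATF6 arm (155 TPM) and of the ER folding, ER-associated degradation and IRE1 lists lie right of the line, and those of other ATF4 targets (14.4 TPM) and of the further serine and one-carbon genes (8.51 TPM) left of it.

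No member was called for spread between libraries. Of all 37 tested, 0 passed a test of varying more than genes of like abundance (edgeR deviance test, Benjamini-Hochberg adjusted p under 0.05 over all genes), beside 1.14% of the 12879 genes tested. With so low a share over all genes, the count of 0 does not set the members apart. At an unadjusted p under 0.05 the count was also 0, beside 6.78% of all genes. With a common dispersion it was 3 (Trib3, Chac1 and Ddit4, beside 1706 of 12879 genes), and without replicate 1 it was 2 (Atf4 and Trib3, beside 802 of 13089). Without replicate 2 it was 1 (Trib3, beside 849 of 13113) and without replicate 4 also 1 (Ddit4, beside 816 of 12941). DESeq2 marked 0 members as dispersion outliers, beside 69 of 12879 genes (0.536%). The median coefficient of variation in CPM was 5.35% for the members and 8.98% for all genes tested; it depends on abundance, and the members are more abundant than most. It was under 10% in 28 members and over 20% in 4, namely Chac1, Derl3, Trib3 and Ddit4. By 2-fold or more between any libraries differed 0 members, though Derl3 came close at 1.985 times. Shares of all genes at these limits were not computed, so these counts do not set the members apart. Among the other pathway genes 0 of 98 tested passed and 5 had an unadjusted p under 0.05 (Hsp90b1, Eif2s2, Gdf15, Cebpz and Gldc, named after their values were seen).

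In replicate 1 the median deviation of the 37 members from their mean was 0.00 on the log2 scale, and those of the 4 arms lay between -0.02 and 0.03. Such medians do not show single members that deviate both ways, such as Derl3 by -0.558 and Chac1 by 0.444, both low in counts. The median of another gene list deviated further in replicate 1. Of 10 immediate-early genes, which respond within minutes to stimulation, 9 passed the same test, namely Fos, Fosb, Jun, Junb, Egr1, Ier2, Dusp1, Btg2 and Zfp36, and all 10 lay above their mean in replicate 1, with a median deviation of 0.57 on the log2 scale. Atf3, on the lists of both immediate-early and ATF4 target genes, was at 128, 126, 133 and 121 TPM and did not pass (edgeR adjusted p = 0.99993). Ppp1r15a was at 28.7 CPM in replicate 1, against 23.4, 23.9 and 22.4 CPM elsewhere (edgeR adjusted p = 0.99993). Whether the same influence acted on Ppp1r15a and on the immediate-early genes was not tested.

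Astrocyte markers were lowest in replicate 1, where all 7 tested lay below their mean, with a median deviation of -0.48, and 3 passed the test, Gfap, Slc1a3 and Clu. Of the other cell type markers P2ry12 of microglia and Acta2 of mural cells passed (edgeR adjusted p = 7.71e-05 and 0.00789). The 4 libraries stood in the same order for Atf5, at 31.6, 42.2, 44.1 and 35.8 CPM in replicates 1 to 4, and for Ddit4, at 9.40, 14.6, 15.0 and 11.7 CPM, as for the summed astrocyte markers. Among the astrocyte markers Gfap, Aqp4, Slc1a2 and S100b did not keep that order singly. The same order held for the summed mural and fibroblast markers, at 68.6, 89.2, 104 and 71.5 CPM. Most of that sum was Acta2, at 42.8, 57.2, 73.5 and 45.7 CPM. Tagln and Pdgfrb also kept the order, while Col1a1, Dcn and Rgs5 did not. Col1a1 was at 6.29, 7.04, 2.33 and 4.18 CPM. For the summed endothelial markers the order also held, at 13.9, 18.9, 23.4 and 17.7 CPM. Most of that sum was Kdr, at 11.7, 17.1, 22.0 and 16.2 CPM. Pecam1, Cldn5 and Cdh5 did not keep the order, and Pecam1 and Cldn5 were highest in replicate 1. Atf5 and Ddit4 were picked out here after their values were seen. Neither passed (edgeR adjusted p = 0.842 and 0.803), and the part of astrocyte, mural or endothelial RNA in their spread was not tested. Phgdh was also lowest in replicate 1, at 6.92 CPM, against 9.13, 8.83 and 7.73 CPM (edgeR adjusted p = 0.99993). Trib3 stood at 6.81, 9.05, 11.5 and 6.53 CPM (edgeR adjusted p = 0.823), highest in replicate 3 and lowest in replicate 4.

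**Figure D4:**
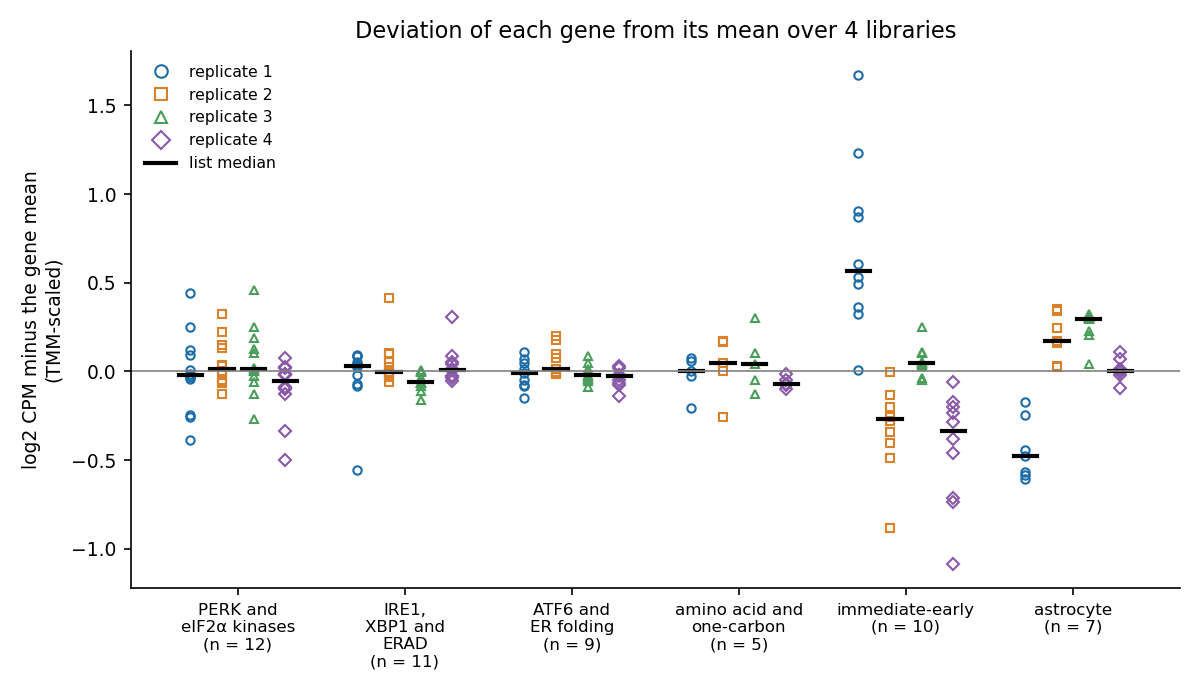
Log2 CPM (TMM-scaled) of each gene minus its mean over the 4 libraries, for the 4 arms and for immediate-early and astrocyte genes, with 1 symbol per gene and library and black bars for list medians. The members lie between -0.56 and 0.46, while immediate-early genes reach 1.67 in replicate 1 and astrocyte genes lie below 0 there.

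Over replicates 1 to 4 the median deviations of the members were 0.00, 0.02, -0.02 and -0.02 on the log2 scale. The furthest arm median was -0.07, for the amino acid arm in replicate 4. Whether the members lean to any library was not tested. Of the 37, 11 were highest and 10 lowest in replicate 1, beside 29.7% and 30.7% of all genes tested. In replicate 3, 9 were highest and 13 lowest, beside 24.0% and 25.1%. In replicate 2 the counts were 12 and 5, beside 23.9% and 22.4%, and in replicate 4 they were 5 and 9, beside 22.4% and 21.7%.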

How the data were processed

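The deposited values are raw counts of reads for each gene symbol, in 1 file per library. They were made with STAR 2.7.10a, SAMtools 1.16.1 and HTSeq 0.11.2 on mm39 (GRCm39), per the submitters' processing notes. No source used here gives the annotation release, strand setting or overlap mode, so overlapping and antisense genes may not have been told apart; in GENCODE M21 other genes cover 8.05% to 11.6% of the exon bases of Eif2ak3, Eif2ak1, Ddit3, Ppp1r15b and Manf. The 5 summary lines held 11.8% ± 0.159 (SD, n = 4) of reads and were left out. TPM was computed from the counts and merged exon lengths in GENCODE M21 (GRCm38), matched by symbol for 89.1% of symbols; Ero1a, Ero1b, Marchf6, Gcn1 and Mars1 of the lists had no length. Where annotated genes share a symbol (Ddit3), the longest was used. CPM used library totals. No 2 libraries were alike within sampling noise (chi-square per degree of freedom 5.43 to 14.6 over genes with 20 or more counts in a pair), so all 4 were used.

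Spread between libraries was tested in edgeR 4.0.16 (R 4.3.3): a model of 1 mean per gene, TMM, filterByExpr, trended dispersion, deviance against chi-square, and Benjamini-Hochberg adjustment over all genes with a threshold of 0.05. Alternatives used DESeq2 1.42.0. The procedure was run on simulated counts drawn with the fitted trended dispersions. Such counts cannot show how it behaves for genes that depart from the trend. The members, lists and tests were chosen with earlier results of these data known. All members are named; of other lists, the 3 highest and 2 lowest by TPM and any past the test, except an item not reported here; of cell type markers, the 2 highest, those at 0 counts and any past the test; of immediate-early genes, those past the test.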

Additional observations from a re-analysis of the deposited data

Results flagged for a closer look

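In replicate 3 the difference of Pdia4 from Pdia6 was 0.16 on the log2(TPM + 1) scale, apart from the other libraries, where it lay between 0.01 and 0.02. It was the 1 value set apart in this way among 58 looked at (37 members, the medians and the gene pairs), and chance sets apart about 5% of groups of 4.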

How the results depend on the processing

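Of 172 alternative values, 164 were classed as the same, 4 as moved and 4 as reversed. Medians were classed as the same within their SD over libraries, and counts within a set ratio or where 0 stayed 0. For gene pairs the class covers the sign alone, and sizes moved. Without length Edem3 minus Edem2 was -0.14, Derl1 minus Derl2 1.52 and Derl3 minus Derl2 -5.23. With a pseudocount of 10 Derl3 minus Derl2 was -1.82. The count of members past the spread test at an adjusted p under 0.05 was 0 under every alternative run. These were DESeq2 size factors, no filter, common dispersion, DESeq2 dispersion outliers, and leaving out each library. They called from 0.351% (without replicate 1) to 4.13% (common dispersion) of all genes tested, so the count of 0 does not set the members apart. The 36 members at 1 CPM became 37 at 0.5 CPM and 35 at 5 CPM. With the longest transcript as length, medians moved to 56.7 TPM (all members), 98.2 TPM (IRE1 arm), 128 TPM (ATF6 arm) and 41.9 TPM (amino acid arm), by construction of the length. Without length (CPM), Atf6b minus Atf6 reversed to -0.43, Pdia4 minus Pdia6 to -0.59 and Ern1 minus Eif2ak3 to 0.24; the longest transcript reversed Pdia4 minus Pdia6 to -0.73. No paired analysis was possible because there is 1 group. Depth limits Derl3 and Chac1, with 18 to 63 counts per library.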
